A study of Mus musculus with 12 samples.

Results

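This account covers the copies of the B1, B3, ID and RSINE1 families of short interspersed elements (SINEs) in the mouse genome that were seen in polyadenylated RNA of P19 cells during neuronal differentiation. Members were all repeat copies of the SINE class named B3, B3A, ID_B1 or RSINE1, or with a name starting B1, that had at least 1 read with a usable poly(A) tail call. There were 2661 such copies, of 13258 repeat copies and 5946 SINE copies with such a read in the series, and they held 4723 alignments from 4550 reads. P19 is a mouse embryonal carcinoma line, and the study followed it by Nanopore direct RNA sequencing, in which each RNA molecule is read as such from its 3′ end. All 12 libraries were labelled WT. The D0 cells were undifferentiated P19 cells, and D2, D4 and D6 were taken 2, 4 and 6 days after the cells were moved to NDiff 227 medium with 500 nM retinoic acid, with 3 libraries per day. The days therefore differ in medium and retinoic acid together, and all libraries come from 1 cell line. The 3 libraries of a day are biological replicates by the study's methods, told apart by barcodes and sequenced together. Each sequencing run held libraries of 1 day, so run and day cannot be told apart.

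SINEs are short elements that copied themselves through the genome by RNA. B1 derives from 7SL RNA, the RNA of the signal recognition particle, as the primate Alu element does, while B2, B3 and ID derive from transfer RNAs, and the elements annotated as ID_B1 join an ID part to a B1 part. An intact element carries an internal promoter for RNA polymerase III, made of an A box and a B box, and ends in an A-rich stretch. Most copies, however, lie inside or next to genes of RNA polymerase II and are read through as part of longer RNAs, and some families hold an AATAAA, the signal at which such RNAs are cut and polyadenylated. A read was placed here on the sequence of the copy alone, so it may come from a longer RNA that starts or ends elsewhere, and because the strand of each copy is not given, sense and antisense reads of a copy could not be told apart.

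The sequences of 9 copies are shown because they carry most reads in exons of long noncoding RNAs, or a motif there, and a transcript sequence could be read for them. Sequences of copies between genes and in introns are not shown. They are the 5 most-read members in such exons, the most-read ID_B1 copy there, and 3 copies chosen for a motif. Each is the part of the copy inside the exon, written 5′ to 3′ on the strand of the host RNA, from GENCODE vM21 transcripts (mm10). Capitals mark AATAAA and the B box letters GTTCNANNC. B1F_dup10206 is at chr4:132310906-132310974 in Snhg12 (plus strand), a host gene of small nucleolar RNAs. B3_dup12935 is shown from chr2:72987528 to 72987632, an internal exon of Sp3os (plus strand). RSINE1_dup33301 is shown at chr5:100420896-100420972 in 5430416N02Rik (minus strand). B3A_dup32949 is shown at chr6:86564276-86564419 in 1600020E01Rik (plus strand). B3_dup63086 is at chr7:127511307-127511509 in 1700008J07Rik (minus strand). ID_B1_dup54291 is at chr8:123043138-123043247 in 2810013P06Rik (plus strand).
B1F_dup10206: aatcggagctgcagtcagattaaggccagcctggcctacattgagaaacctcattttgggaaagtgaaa
B3_dup12935: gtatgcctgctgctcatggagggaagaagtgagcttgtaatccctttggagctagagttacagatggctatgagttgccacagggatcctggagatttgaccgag
RSINE1_dup33301: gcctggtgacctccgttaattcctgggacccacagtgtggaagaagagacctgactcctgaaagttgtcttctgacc
B3A_dup32949: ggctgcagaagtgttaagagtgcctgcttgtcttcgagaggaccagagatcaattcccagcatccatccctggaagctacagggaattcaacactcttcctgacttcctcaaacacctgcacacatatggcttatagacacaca
B3_dup63086: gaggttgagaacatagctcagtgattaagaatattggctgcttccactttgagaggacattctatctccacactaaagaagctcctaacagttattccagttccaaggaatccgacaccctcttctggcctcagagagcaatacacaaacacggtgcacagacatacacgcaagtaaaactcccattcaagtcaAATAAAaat
ID_B1_dup54291: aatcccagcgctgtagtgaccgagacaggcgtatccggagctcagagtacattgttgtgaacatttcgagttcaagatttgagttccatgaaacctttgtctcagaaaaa
Of these 6, only B3_dup63086 held either motif, an AATAAA at base 195 of its 203.

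The other 3 were chosen for their motifs after the sequences were searched, as the pair of most-read copies in such exons with a B box on the host strand and a well-read copy with an AATAAA. RSINE1_dup102374 is at chr16:21808851-21808924 in 1300002E11Rik (plus strand) and had 13 reads. B3_dup146332 is at chr19:32390959-32391172 in 2700046G09Rik (plus strand) and had 8 reads. B3_dup52333 is shown at chr6:113067428-113067585 in Gt(ROSA)26Sor (minus strand) and had 16 reads.
RSINE1_dup102374: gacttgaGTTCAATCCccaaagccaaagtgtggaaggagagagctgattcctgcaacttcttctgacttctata
B3_dup146332: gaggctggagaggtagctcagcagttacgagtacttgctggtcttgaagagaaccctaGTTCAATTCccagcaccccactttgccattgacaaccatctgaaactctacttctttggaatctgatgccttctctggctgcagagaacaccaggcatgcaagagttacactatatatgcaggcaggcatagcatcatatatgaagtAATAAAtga
B3_dup52333: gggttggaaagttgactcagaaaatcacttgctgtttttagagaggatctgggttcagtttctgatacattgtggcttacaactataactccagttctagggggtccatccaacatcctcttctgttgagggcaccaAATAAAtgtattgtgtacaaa
In B3_dup146332 the B box starts at base 59 and AATAAA at base 206 of its 214, so the copy carries the promoter letters and the cleavage signal in the same direction. Of 256 members with at least 50 bases in an exon of a long noncoding RNA, 31 (12.1%) held AATAAA in the direction of the host RNA, against 6.71% of 3800 windows of matching length elsewhere in the same transcripts. The B3 and B3A copies accounted for 24 of the 31, which is 24 of 95 (25.3%), while 3 of 71 B1 copies, 2 of 31 ID_B1 copies and 2 of 59 RSINE1 copies held it. On the opposite strand the share was 8.59%, against 7.55% of the windows. The B box was found in 26 copies (10.2%) in the host direction and in 32 (12.5%) in the other, against 3% and 3.42% of the windows. These matches describe letters only, and AATAAA and the B box share no positions in the copies shown.

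The members split into 14 families. B3 led with 1229 reads on 655 copies, followed by RSINE1 with 938 on 414, B3A with 550 on 304 and ID_B1 with 539 on 331. The 10 B1 families together held 31.1% of member reads, from B1F with 250 reads on 104 copies and B1_Mus1 with 231 on 150 to B1_Mm and B1F2 with 75 each and B1F1 with 67. Reads were spread thinly: 2045 copies (76.9%) had 1 read, and 44 copies with 10 or more reads held 981 reads (20.8%). In B1F, the copy in Snhg12 alone held 34% of the reads of the family. Most reads covered their copy from end to end, with a median of 98.5% of the copy aligned and 67.2% of reads within 5 bases of both ends, over copies of 52 to 250.0 bases.

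Mapping quality, the aligner's score of how surely a read is placed, was 10 or more for 78.8% of member reads, against 48.9% of reads on B2, the other large tRNA-derived SINE family of the mouse. Libraries held 120326 to 613756 reads on nuclear transcripts and 132 to 664 member reads, fewest on D2, so single copies rest on few reads in most libraries. Undifferentiated markers were lower and neuronal markers higher by D6: Pou5f1 went from 1553 ± 106 RPM (reads per 1000000 reads on nuclear transcripts, SD, n = 3) on D0 to 0.99 ± 1.72 on D6, and Tubb3, a neuronal tubulin, from 128 ± 5.45 to 972 ± 46.3. By the abundance fit described further on, all 3 tested undifferentiated markers were lower on D6, and all 6 neuronal and all 3 progenitor markers were higher. On D2, 0 of the 6 neuronal markers were higher and 2 were lower, Tubb3 (-1.07, adjusted p = 0.00527) and Stmn2, a neuronal microtubule regulator (-1.94, adjusted p = 2.93e-09). Of the other undifferentiated markers Nanog had 17 reads and Dppa5a and Zfp42 none. The glial markers Gfap and Olig2 had 1 read each over the series, Olig1 had none, and of the endoderm markers Gata6 had 9 reads and Gata4 and Sox17 none. Because these are bulk samples, fewer cells of a type and less RNA per cell cannot be told apart.

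Member reads were a larger share of the RNA on D6. The D0 libraries held 1048, 870.1 and 1008 RPM of member reads, the D2 libraries 1097, 933 and 976, the D4 libraries 1007, 995 and 1067, and the D6 libraries 1422, 1549 and 1399. The 3 D6 libraries lie above the other 9, which overlap between days. The means were 975 ± 93.3 on D0, 1002 ± 84.9 on D2, 1023 ± 38.5 on D4 and 1457 ± 80.4 on D6 (SD, n = 3), a 1.49-fold level on D6. Part of that scale is general: scaled by library totals, the median of all genes and families was itself 0.27 higher on D6 on the log2 scale, against 0.58 for member reads. Reads on long terminal repeat (LTR) elements stood at 1.11-fold of D0 on D6, with the nearest libraries at 4593 and 4592 RPM. Reads on long interspersed elements (LINEs) stood at 1.22-fold, with overlap. With alignments of any tail-call quality counted, an alternative added after the data were seen, the log2 difference on D6 was 1.16.

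B2 reads were fewer on D2 and D4 than on D0, without overlap. They stood at 971 ± 113 RPM on D0, 805 ± 25.9 on D2, 687 ± 41.5 on D4 and 901 ± 65.9 on D6. The log2 ratio of member to B2 reads, which needs no scaling between libraries, was 0.01 ± 0.11 on D0, 0.31 ± 0.11 on D2, 0.57 ± 0.05 on D4 and 0.69 ± 0.05 on D6 (SD, n = 3). The ratio was higher than on D0 by 0.30 on D2, 0.57 on D4 and 0.68 on D6, with no overlap between days. Each difference had p = 0.1 in a two-sided exact permutation test, the smallest p that 3 against 3 libraries can give, so no difference could reach 0.05. The differences were smaller when a mapping quality of 10 or more was required, which 48.9% of B2 reads had: 0.0913 on D2 (p = 0.5, exact permutation test) and 0.197 on D4 (p = 0.2, exact permutation test), both with overlap between days, and 0.303 on D6 without overlap. The D2 libraries also overlapped those of D0 with a barcode confidence of 0.75 or more and with copies outside annotated exons alone.

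**Figure D1:**
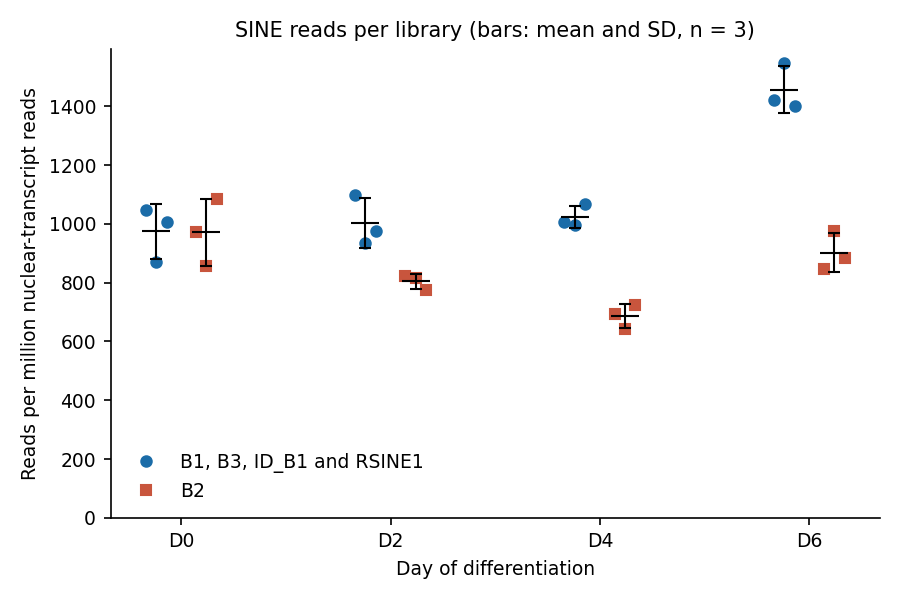
RPM (vertical axis) by day of differentiation, for the B1, B3, ID_B1 and RSINE1 members (circles) and for B2 (squares). Each point is 1 library and the bars give the mean and SD of 3. Member reads stand at 1399 to 1549 in the D6 libraries and at most at 1097 in the others, while the mean of B2 is 971 on D0 and 687 on D4.

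Copies were also divided by their total reads, which come from these same libraries, so the division is a description. The 44 copies with 10 or more reads held 211 ± 15.1 RPM on D0 and 228 ± 38.8 on D6, a 1.08-fold level, while the other 2617 copies went from 764 ± 78.6 to 1228 ± 42.2, a 1.61-fold level. The first class holds B3A_dup78286 and ID_B1_dup64489, which had 11.7 and 8.35 RPM on D0 and no read on other days. By family group, the D6 level against D0 was 1.62-fold for B3 and B3A, 1.49-fold for B1, 1.48-fold for ID_B1 and 1.30-fold for RSINE1. These ratios describe the libraries and were not tested.

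Single families were tested with limma-voom over all genes and families with at least 30 reads, with TMM scaling and Benjamini-Hochberg adjusted p-values called at 0.05. At D6, 2 of the 14 families rose, against 18.8% of all 9463 features, and 13 of 14 had a positive log2 fold change, with a median of 0.34 against -0.00053 for all features. B3, a tRNA-derived family, had 245, 220.0 and 250.5 RPM on D0, 299, 274 and 277 on D2, 269.6, 232 and 287 on D4, and 424, 394 and 377 on D6. Its D6 libraries stand apart from every other library. The log2 fold change on D6 was 0.47 ± 0.13 (SE), with an adjusted p of 0.00211. B3 was called on D6 under every alternative that was run.

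B1_Mus1, one of the younger B1 families, rose by 0.72 ± 0.25 on D6 (adjusted p = 0.0176), from 42.3, 31.0 and 50.1 RPM on D0 to 99.5, 72.3 and 74.3. The days do not overlap, but the call was lost with mapping quality of 10 or more (adjusted p = 0.166). The call was also lost with 1 alignment per read (0.0680), outside annotated exons (0.0824), without D0 replicate 2 (0.141) and without D6 replicate 1 (0.0726).

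ID_B1 showed the only change on D2. Its libraries held 142, 92.9 and 125 RPM on D0, 58.2, 62.2 and 81.3 on D2, 139, 101 and 123 on D4, and 173, 184 and 175 on D6. The D2 libraries, with 7, 15 and 15 reads, lie below all others and the D6 libraries above all others. At D2 the log2 fold change was -0.92 ± 0.27 (adjusted p = 0.0153), 1 lower family of 14 against 5.95% of all features. The call was lost without D2 replicate 2 (adjusted p = 0.141) and without D0 replicate 1 (0.0512). It was also lost with mapping quality of 10 or more (0.0540) and with library totals as scaling (0.0650). At D6 the log2 fold change was 0.34 ± 0.17 (adjusted p = 0.103).

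The remaining families did not pass the main test on any day. RSINE1 stood at 194 ± 12.7 RPM on D0 and 253 ± 13.2 on D6, with every D6 library above every D0 library, yet its log2 fold change under TMM scaling was 0.13 ± 0.14 (adjusted p = 0.528). B3A went from 107 ± 4.34 to 160.0 ± 32.5, also without overlap (0.33 ± 0.18, adjusted p = 0.140). Among the B1 families, B1F1 had the largest value, 0.93 ± 0.45 (adjusted p = 0.0956), from 10, 6 and 3 reads on D0 and 6, 11 and 9 on D6. The values for B1_Mur1, B1_Mur4, B1F2, B1_Mm, B1_Mur2, B1F, B1_Mur3 and B1_Mus2 ran from 0.50 down to -0.03. Several B1 families passed the test on D6 under single alternatives. B1_Mur4 stood at 1.07 with a mapping quality of 10 or more (adjusted p = 0.0300) and at 0.84 without D6 replicate 3 (adjusted p = 0.0295). B1_Mur1 stood at 0.78 without D6 replicate 1 (adjusted p = 0.0395), and B1F at 0.79 outside annotated exons (adjusted p = 0.0307). B1F1 stood at 1.41 with 1 alignment per read (adjusted p = 0.0258) and at 1.34 without D0 replicate 1 (adjusted p = 0.0465). Scaling by library totals, which put the median of all features at 0.27 on D6, gave further calls. RSINE1 then stood at 0.39 (adjusted p = 0.0199), B3A at 0.60 (0.00554), B1F1 at 1.20 (0.0301) and B1_Mur1 at 0.75 (0.0476). At D4, limma-voom called 0 of 14 families, also 0 at an unadjusted p under 0.05, where 25.1% of all features were called in either direction.

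**Figure D2:**
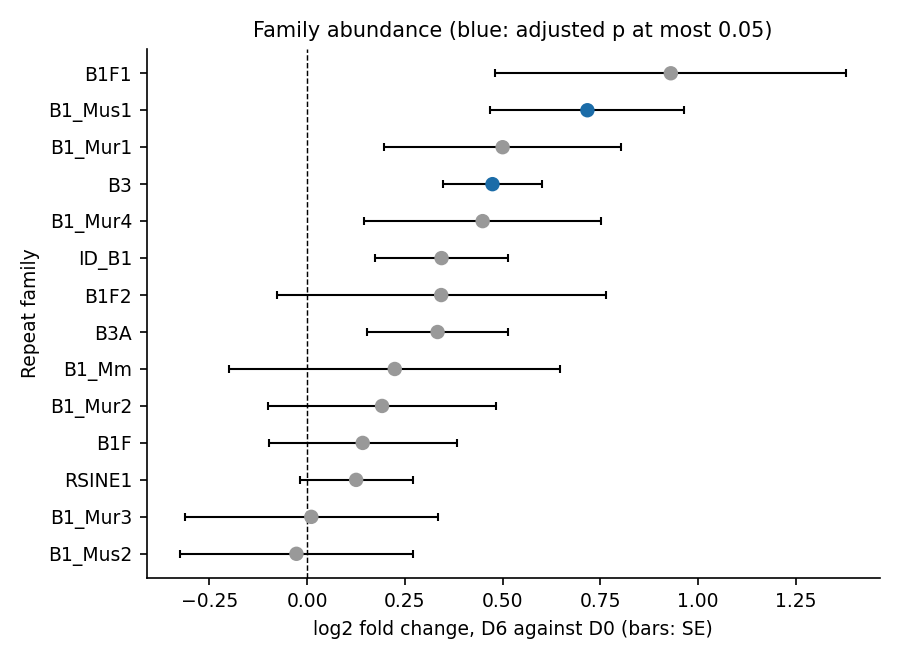
The log2 fold change of each of the 14 member families on D6 against D0 (horizontal axis) with its SE, from limma-voom with TMM scaling. B1_Mus1 (0.72) and B3 (0.47) are the called families, and B1_Mus2 (-0.03) is the only one below 0.

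Only 5 copies had the 30 reads needed for a test of the single copy. RSINE1_dup82118, at chr11:105140990-105141114, had the most reads, 128, and lies between genes, 100 bases upstream of Gm24290, a gene of the class misc_RNA. It had 18, 13 and 13 reads on D0, 8, 7 and 2 on D2, 7, 20 and 16 on D4 and 5, 9 and 10 on D6, and did not pass the test (log2 -0.53 ± 0.39 on D6, adjusted p = 0.320). The days overlap throughout, and 88 of its reads ran within 5 bases of both ends of the copy.

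B1F_dup10206, the 69-base copy in the last part of Snhg12 shown above, was called lower on D6, with similar mean levels on D2 and D4. Its reads were 10, 17 and 18 on D0, 4, 3 and 1 on D2, 2, 8 and 7 on D4 and 3, 5 and 7 on D6. In RPM, that is 28.2 ± 6.23 on D0 and 14.5 ± 5.46 on D6, with the highest D6 library (20.8) just below the lowest D0 library (22.2). The log2 fold change on D6 was -1.22 ± 0.43 (adjusted p = 0.0259), 1 of 5 copies lower, against 16.9% of all 12477 transcripts and copies tested. The call was lost with mapping quality of 10 or more (adjusted p = 0.386), which 50.6% of its reads had. It was also lost without D0 replicate 2, without D0 replicate 3, without D6 replicate 1 and without D6 replicate 2 (adjusted p up to 0.159). The same held with library totals as scaling (adjusted p = 0.0962) and with no filter on low counts (0.0628). Outside the copies that overlap an exon, the B1F family as a whole had a log2 fold change of 0.79 (adjusted p = 0.0307), against 0.14 with them.

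B3_dup12935, at chr2:72987491-72987693 in Sp3os, a noncoding RNA antisense to the transcription factor gene Sp3, rose on D4. It had 2, 8 and 7 reads on D0, 4, 3 and 4 on D2, 9, 11 and 13 on D4 and 3, 6 and 10 on D6. In RPM, it stood at 10.3 ± 5.09 on D0 and 30.6 ± 5.21 on D4, where the groups do not overlap. The log2 fold change on D4 was 1.38 ± 0.45 (adjusted p = 0.0225), 1 of 5 copies higher, against 9.02% of all features. The call was lost without D0 replicate 1 (adjusted p = 0.135), without D4 replicate 1 (0.0557) and with no filter on low counts (0.0558). At D6 the value was 0.48 ± 0.50 (adjusted p = 0.508).

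None of the 80 reads on this copy ran within 5 bases of both its ends. If the copy is read on the minus strand, the commonest start falls at base 72987526 (60 of 80 reads) and the commonest end at 72987632 (56 of 80), next to the edges of the Sp3os exon printed above, at 72987528 and 72987632. On the other strand neither edge lies within 5 bases of the exon in any read. Of the 80 reads, 60 were also aligned to a transcript of Sp3, whose own log2 fold change on D4 was 0.05 ± 0.23 (adjusted p = 0.900).

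RSINE1_dup33301, in 5430416N02Rik, had 46 reads, 7, 8 and 5 on D0 and 1, 5 and 3 on D6 (log2 -0.81 ± 0.56, adjusted p = 0.290). B3A_dup32949, in 1600020E01Rik, had 44 reads, 1, 3 and 4 on D0, 6, 9 and 2 on D4 and 3, 10 and 4 on D6. Its log2 value on D6 was 1.29 ± 0.64 (adjusted p = 0.124), from 4.94 ± 2.74 to 15.4 ± 6.86 RPM, and its D6 libraries lie above its D0 libraries. At D2, limma-voom called none of the 5 copies and 1 had an unadjusted p under 0.05, where 9.49% of all features were called in either direction.

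**Figure D3:**
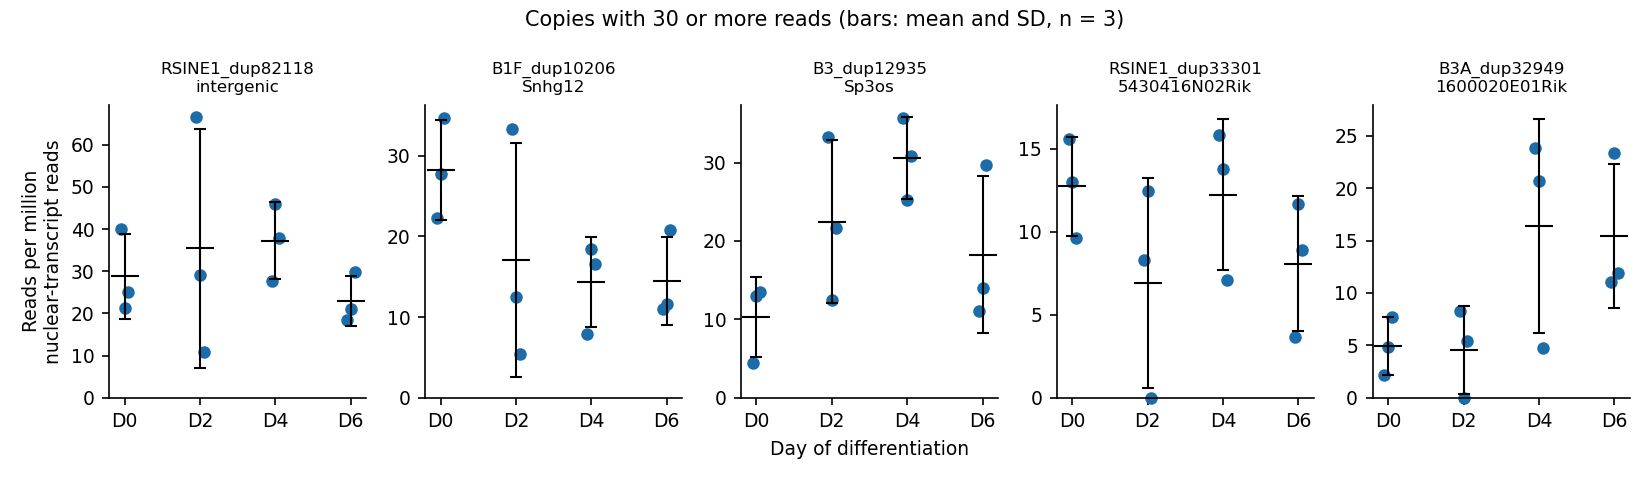
RPM (vertical axis, scaled per panel) by day for the 5 copies with 30 or more reads, each named with its host RNA or, for RSINE1_dup82118, as intergenic. Each point is 1 library and the bars give the mean and SD of 3. B1F_dup10206 is highest on D0 (28.2) and B3_dup12935 on D4 (30.6).

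The next most-read copies had too few reads for a test. RSINE1_dup68988 (28 reads, chrX:152278766-152278906) lies 4231 bases downstream of Kdm5c, a histone demethylase gene. B3_dup63086 in 1700008J07Rik had 27 reads, 7 of them on D0 and 10 on D6. B3_dup86565 (26 reads, chrX:163975974-163976169) lies 653 bases downstream of Car5b, and B3_dup71461 (25 reads, chr9:8021477-8021635) lies 37 bases downstream of Cfap300. B3_dup61758 (23 reads, chr7:109796888-109797041) lies 1635 bases downstream of Scube2 and had 2 reads on D0 and 9 on D6. RSINE1_dup36691 (23 reads, chr5:137347684-137347828) lies 2281 bases upstream of Ephb4, an ephrin receptor gene, and had 7 reads on D0, 3 on D2, 12 on D4 and 1 on D6. Ephb4 itself fell by 2.09 on the log2 scale on D6 (SE 0.58, adjusted p = 0.00298), and 1 of the 23 reads of this copy was also aligned to it.

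Among the 44 copies with 10 or more reads, 32 had a read on every day. A pair of them, chosen after their values were seen, was read on D0 only. B3A_dup78286 (chr15:8864290-8864503), between genes and 49981 bases from the nearest, had 4, 9 and 6 reads on D0 and 0 in the 9 other libraries. Its level on D0 was at least 4.15-fold higher than on D6, with 3 counts over the D6 libraries as the floor. ID_B1_dup64489 (chrX:84429868-84430064), in an intron of the dystrophin gene Dmd, had 5, 5 and 3 reads on D0 and 0 elsewhere, at least 2.84-fold higher than on D6 by the same floor.

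By position, 948 copies lay between genes with 1844 reads (39.0%), 1248 in introns of protein-coding genes with 1659 reads (35.1%) and 266 in exons of long noncoding RNAs with 916 reads (19.4%). A further 119 copies lay in introns of other genes (169 reads), 39 in untranslated regions (68 reads), 34 in other noncoding exons (43 reads) and 7 in coding exons (24 reads). The share in exons of long noncoding RNAs ran from 15.7% to 27.2% over the 12 libraries, against 3.42% to 10.9% for B2, with no overlap. These exons belong to 232 genes, and 0 of them had a usable read on a transcript of their own in the same table. The study's methods name GENCODE vM17 genes as its annotation, whereas copies were placed here on vM21, and whether long noncoding transcripts were among the sequences aligned to was not tested. Of the intergenic copies, 478 (984 reads) lay within 5000 bases downstream of a gene and 294 (605 reads) within 5000 bases upstream.

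Between D0 and D6, RPM values were 1.60-fold higher in introns of protein-coding genes (347 ± 39.0 to 556 ± 11.4), 1.60-fold in exons of long noncoding RNAs (164 ± 11.9 to 262 ± 29.6) and 1.38-fold between genes (401 ± 48.8 to 555 ± 37.1). In each of these positions the D6 libraries lie above the D0 libraries. In exons of long noncoding RNAs the D2 libraries (187 to 258 RPM) and D4 libraries (211 to 274) already lay above the D0 libraries (152 to 175) and overlapped those of D6 (241 to 296). In introns of protein-coding genes (314 ± 46.2 on D2, 336 ± 3.68 on D4) and between genes (394 ± 40.6 and 374 ± 54.5), D2 and D4 overlapped D0. Of the 4550 reads, 862 (18.9%) were also aligned to a nuclear transcript, 622 of them to a gene that holds the copy.

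Member reads carried longer poly(A) tails than other reads of the same library. The median tail was 118, 119 and 132 nt on D0, 117, 115 and 114 nt on D2, 137, 122 and 128 nt on D4, and 133, 146 and 146 nt on D6. Reads on nuclear transcripts had medians of 95.2 to 106 nt. The member median was higher in 12 of 12 libraries, by 27.5 nt on average (SD 10.8, n = 12, p = 0.000488, two-sided exact sign-flip permutation test, the smallest p it can give). Against B2 it was higher in 11 of 12 libraries, by 13.2 nt (SD 9.18, p = 0.00146, same exact test), but by 6.25 nt with mapping quality of 10 or more (p = 0.0596, same exact permutation test). Over all libraries, the quartiles of member tails were 81.3 and 195 nt, against 66.0 and 143 nt on nuclear transcripts, and the lowest 5% ended at 36.0 and 35.4 nt.

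**Figure D4:**
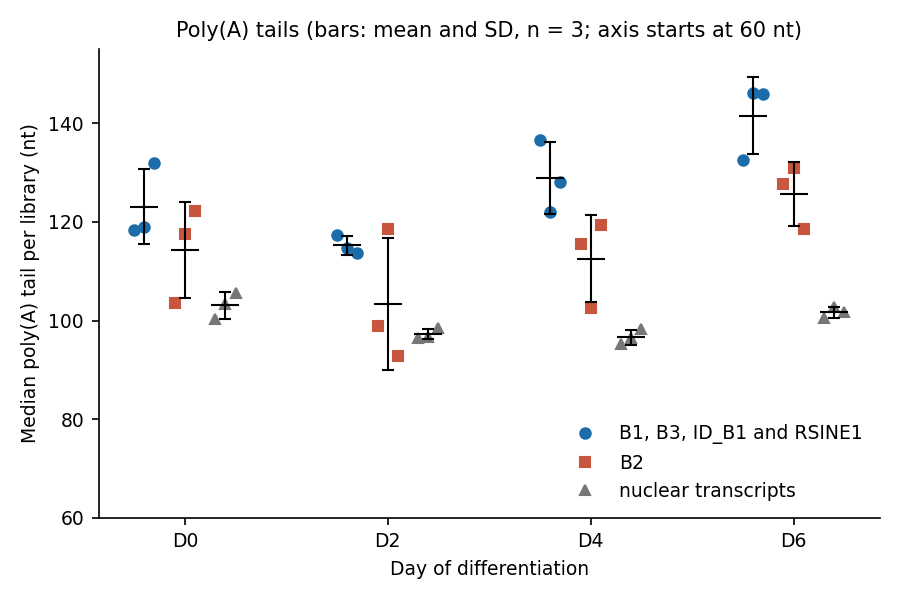
Median poly(A) tail per library in nt (vertical axis, from 60 nt) by day for the members (circles), B2 (squares) and nuclear transcripts (triangles), with the mean and SD of 3 libraries. Member medians lie above those of nuclear transcripts in all 12 libraries and their mean is highest on D6 (142 nt, libraries from 133 to 146 nt, with 1 D4 library, at 137 nt, above the lowest of them).

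Tails of single families were tested with limma on library medians weighted by reads, in 4905 features that averaged 10 or more reads a library, as 11 member families did. At D6, 2 of 11 had longer tails, against 2.39% of all features. B3 medians were 103, 118 and 127 nt on D0, 115, 94.2 and 114 nt on D2, 136, 126 and 126 nt on D4, and 139, 153 and 147 nt on D6. The D6 libraries lie above all others, and the difference on D6 was 30.6 ± 5.79 nt (SE, adjusted p = 0.000283), against a median of 4.86 nt over all features. Among the alternatives run, the call was lost only in a fit without weights (adjusted p = 0.313), where the difference stood at 30.4 nt.

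B3A medians were 131, 116 and 123 nt on D0, 131, 106 and 130 nt on D2, 149, 109 and 121 nt on D4, and 149, 149 and 170 nt on D6. The difference on D6 was 32.1 ± 8.80 nt (adjusted p = 0.0220), and the call was lost with mapping quality of 10 or more (adjusted p = 0.103), with 1 alignment per read (0.102), without weights (0.378), with the mean of log2 tails (0.0737) and without D0 replicate 2 (0.139), D0 replicate 3 (0.0636) or D6 replicate 3 (0.139). In nt, the difference stood at 25.9 to 32.2 where the call was lost. B1_Mur4 had the largest value, 51.1 ± 16.3 nt, with an adjusted p of 0.0601. RSINE1 stood at 5.92 ± 6.69 nt (adjusted p = 0.734) and B1F at -21.1 ± 11.2 nt (adjusted p = 0.354).

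Limma called no family on D2 (0 at an unadjusted p under 0.05, 1.81% of all features called in either direction) or on D4 (1 at an unadjusted p under 0.05, 2.77% called). The share of tails of 30 to 90 nt and the share under 30 nt also gave 0 called families on D6, with 1 family each at an unadjusted p under 0.05, where 3.26% and 1.28% of features were called. Tails of 30 to 90 nt made up 26.7% ± 2.80 of member reads on D0 and 23.4% ± 1.28 on D6, against 38.3% ± 1.58 and 39.2% ± 0.885 on nuclear transcripts.

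Among the 3 positions with most reads, member tails on D6 were longest in introns of protein-coding genes. This pattern was seen in the data and is given without a test. Members in introns of protein-coding genes had median tails of 120, 126 and 142 nt on D0, 135, 111 and 113 nt on D2, 160.0, 130 and 151 nt on D4, and 185, 193 and 195 nt on D6. All D6 values lie above all others. The means were 129 ± 11.3 nt on D0 and 191 ± 5.16 nt on D6 (SD, n = 3). Between genes they were 117 ± 10.9 and 127 ± 7.75 nt, with overlap, and in exons of long noncoding RNAs 137 ± 6.14 and 121 ± 8.15 nt, where D6 was the lower.

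The intronic values rest on many genes. At D6 there were 578 intronic reads on 522 copies in 471 host genes, and on D0 542 reads on 432 copies in 386 genes. With 1 read per host gene and library, the mean was 132 ± 14.9 nt on D0 and 193 ± 8.48 nt on D6, and with mapping quality of 10 or more 125 ± 4.70 and 187 ± 8.72 nt. Tails over 200 nt made up 24.6% ± 4.35 of intronic member reads on D0 and 47.5% ± 0.489 on D6, against 6.71% ± 0.467 and 10.3% ± 0.695 of reads on nuclear transcripts. Intronic B2 reads had medians of 109 ± 9.49 nt on D0 and 127 ± 19.5 nt on D6, which overlap.

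For B3 and B3A the D6 libraries lay above the D0 libraries in introns and overlapped them at both other positions, which was not tested. Intronic B3 reads had library medians of 112 to 125 nt on D0 and 185 to 220 nt on D6, from 146 and 159 reads. Intronic B3A reads had 120 to 144 nt on D0 and 184 to 204 nt on D6, from 46 and 58 reads. Between genes, B3 medians ran from 94.6 to 136 nt on D0 and from 119 to 149 nt on D6, and in exons of long noncoding RNAs from 103 to 136 and from 104 to 135 nt. For B3A they ran from 111 to 141 nt and from 110 to 164 nt between genes, and from 116 to 148 nt and from 129 to 144 nt in these exons. In these exons the means of both families were the higher on D6 (114 and 118 nt for B3, 128 and 135 nt for B3A), unlike that of the members together.

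Some intronic reads were also aligned to a nuclear transcript, and these had the longest tails. They were 27.3% ± 1.31 of intronic reads on D0 and 42.0% ± 0.583 on D6, although D4 replicate 1 reached 42.9% and D2 replicate 1 39.5%. In RPM, such reads went from 94.2 ± 6.78 on D0 to 234 ± 4.84 on D6, and the other intronic reads from 252 ± 32.5 to 322 ± 8.25. The D6 libraries lie above all others for both. Median tails were 200.5 ± 30.1 nt on D0 and 250.0 ± 12.8 nt on D6 for the reads also on a transcript, and 114 ± 4.71 and 138 ± 16.8 nt for the others.

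For 522 of 543 such reads (96.1%), the transcript belonged to the gene whose intron holds the copy. In 509 of them the library also held other reads of that gene, and the intronic read had the longer tail in 430 (84.5%). Over these, library medians of the intronic reads were 165 to 267 nt, and the median tail of the host genes in their other reads was 102 to 122 nt. The median difference was 66.1 to 145 nt and above 0 in 12 of 12 libraries, with means of 86.7 ± 24.0 nt on D0 and 130 ± 13.2 nt on D6. The 12 libraries held 12 to 97 such reads each.

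**Figure D5:**
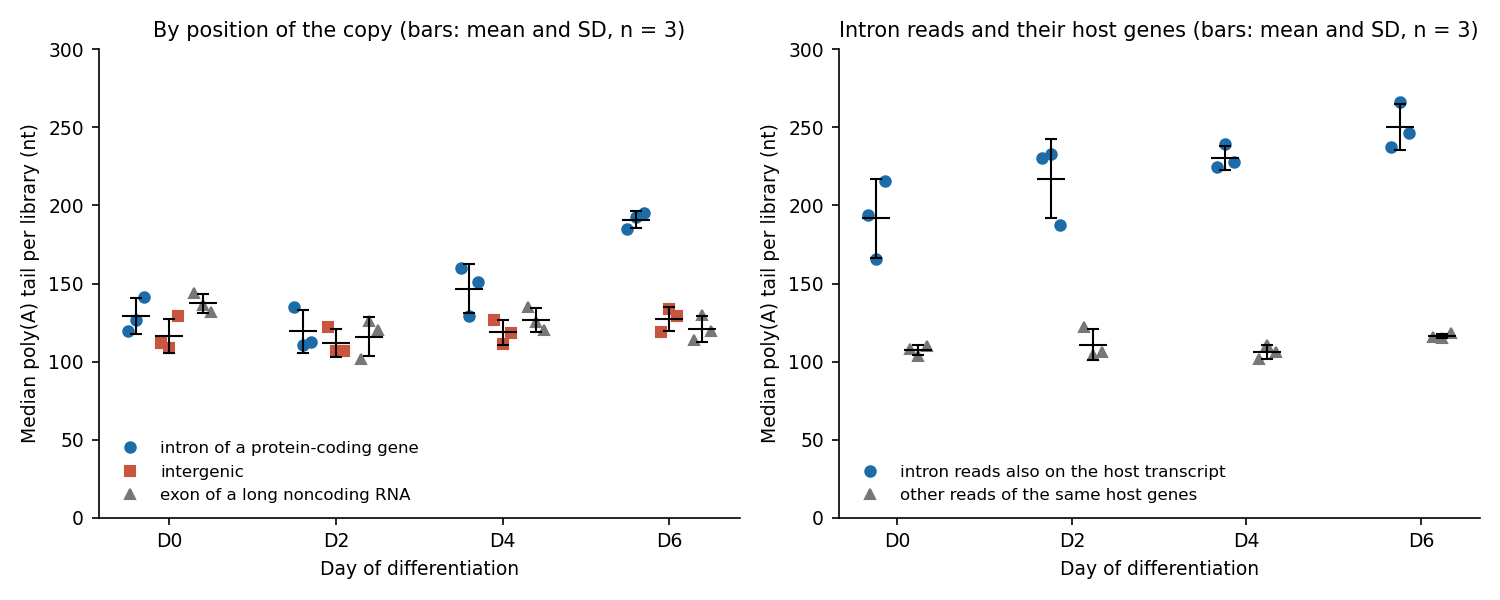
Median poly(A) tail per library in nt (vertical axes) by day, with the mean and SD of 3 libraries. Left, member reads by the position of the copy. Right, intronic member reads that also align to their host transcript (circles) and the other reads of the same host genes (triangles). Intronic members reach 185 to 195 nt on D6, and in the right panel the circles lie above the triangles in every library.

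The genes that act on SINE RNA and DNA were taken from 3 lists. The RNA polymerase III machinery transcribes intact SINEs. At D6, 4 of 31 tested genes were higher and 6 lower, against 18.8% and 18.9% of all features, with a median log2 fold change of -0.11 (all features -0.00053). Polr3g, a subunit enriched in pluripotent cells, fell from 32.7 ± 6.70 RPM to 5.75 ± 2.78 (log2 -2.53 ± 0.54, adjusted p = 0.00011). Polr3k, a small subunit of the enzyme, rose from 57.5 ± 6.36 to 125 ± 13.1 (0.84 ± 0.21, adjusted p = 0.00103). Polr1c and Polr1d, shared by polymerases I and III, fell by 1.04 (adjusted p = 1.86e-07) and 0.81 (adjusted p = 5.32e-06). Maf1, the repressor of polymerase III, stood at 0.36 ± 0.21 (adjusted p = 0.173).

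Of the proteins that bind or edit SINE RNA, 23 were tested, 6 were higher and 5 lower on D6, against 18.8% and 18.9% of all features, with a median of 0.11 (all features -0.00053). Srp9 and Srp14 form the protein pair that binds the 7SL-like fold of B1 and Alu RNA. Srp14 rose from 146 ± 19.4 to 244 ± 3.75 RPM (0.47 ± 0.15, adjusted p = 0.0100), while Srp9 stood at -0.23 ± 0.17 (adjusted p = 0.298). Ilf2, which binds double-stranded RNA, rose by 0.82 ± 0.15 (adjusted p = 1.71e-05). Pabpc1, the cytoplasmic poly(A)-binding protein, fell from 993 ± 60.5 to 552 ± 10.3 (-1.10 ± 0.10, adjusted p = 9.48e-14), and Ptbp1, a splicing repressor, fell by 1.07 (adjusted p = 5.91e-09). Srp19 fell by 0.74 (adjusted p = 0.000519). Adar, which edits paired SINE RNA, stood at 0.27 ± 0.38 (adjusted p = 0.618).

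Of 30 tested genes that silence retroelements in chromatin, 4 were higher and 10 lower on D6, against 18.8% and 18.9% of all features, with a median of -0.13 (all features -0.00053). Dnmt3b, a DNA methyltransferase of early cells, fell from 147 ± 27.9 to 2.78 ± 2.46 RPM (-5.55 ± 0.62, adjusted p = 4.69e-11). Hells, a remodeller needed for DNA methylation of repeats, fell by 1.71 ± 0.25 (adjusted p = 7.22e-08). Trim28, the corepressor recruited by zinc finger proteins, fell from 426 ± 32.2 to 285 ± 37.0 (-0.82 ± 0.13, adjusted p = 3.44e-07), and Chaf1b, a histone chaperone subunit, fell by 1.06 ± 0.23 (adjusted p = 0.00016). Setdb1, the histone methyltransferase that works with Trim28, stood at 0.49 ± 0.34 (adjusted p = 0.266). How far any of these genes bears on member reads was not tested.

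The share of member alignments with a usable tail call differed between days. It was 27.2% ± 1.34 on D0, 25.1% ± 0.269 on D2, 19.1% ± 1.37 on D4 and 19.1% ± 1.33 on D6. The share set aside because a long end of the read did not align to the copy was 53.6% ± 2.70 on D0 and 64.7% ± 0.866 on D6, and for B2 8.69% ± 1.75 and 24.5% ± 1.79. Over the series, 21.9% of member alignments, 38.3% of B2 alignments and 80.3% of alignments to nuclear transcripts had a usable call. For alignments of any tail-call quality, the log2 difference of members from D0 was 0.24 on D2, 0.55 on D4 and 1.16 on D6. With usable calls alone it was 0.04, 0.07 and 0.58. The part of the usable share in other differences between days was not tested.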

How the data were processed

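The authors sequenced poly(A) RNA from P19 cells on Nanopore R9 flow cells, used Guppy for base calls, placed the reads on mm10 transcripts and repeat copies by Minimap2 2.20, assigned barcodes with Deeplexicon and called poly(A) tails with Nanopolish. The deposited table holds 1 line per alignment, with the tail length in nucleotides (nt), a mapping quality score and a barcode confidence given as a fraction, all written by the authors' tools. This table gives alignments and not counts, so reads were tallied here and fitted with limma-voom. The authors fitted DESeq2 to their own counts, and neither DESeq2 nor edgeR was used here. A second table of the authors' own fold changes and adjusted p-values between days was not used.

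Alignments with the tag PASS and a barcode (4673531 of 6306434 lines) were tallied here per gene, repeat family and copy in each of 12 libraries of 4 days. Members and gene lists were chosen with earlier results of these data known. Abundance was compared with D0 by limma-voom 3.58.1 in R 4.3.3 over all features with at least 30 reads, with TMM scaling, a pseudocount of 0.5 reads, Benjamini-Hochberg adjustment and a threshold of 0.05. Tails were fitted with limma as described beside the results. Totals over the members were described without a test, and log2 ratios and tail differences were compared by exact permutation. Copies were placed with bedtools 2.31.1 on GENCODE vM21 for mm10. Coordinates are 1-based.

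Every member family with 30 reads, the 10 most-read copies with ties, copies called at D6 and, per list, up to 4 called genes with the smallest adjusted p and a few fixed genes are named. Intervals of counting error were not computed, since the libraries give the spread. On simulated counts in which 200 better-read features were raised or lowered 2-fold, limma-voom at D6 recovered 32.5% of them among 9265 genes and families. Among 11985 transcripts and copies it recovered 28%, and of 200 tails lengthened or shortened by 30 nt 76.5% (4905 features). These rates cover all features, not the members alone. Alternatives covered mapping quality, barcode confidence, repeated reads, position, scaling, filters, pseudocount, weights, a replicate block and leaving out each library.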

Additional observations from a re-analysis of the deposited data

Results flagged for a closer look

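A set of 121 member alignments had the tag PASS but no assigned barcode, 2.50% of all member alignments with that tag, and entered no comparison. A further 12840 member alignments carried the tag for a long unaligned end, SUFFCLIP, against 4723 with the tag PASS, and have no usable tail. Both are signal in data that the main comparisons do not use, and the alternative with all tail tags counted the SUFFCLIP alignments. No group of libraries was large enough to look for a single outlying library.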

How the results depend on the processing

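For the log2 difference of member RPM (reads per 1000000) from D0, main values were 0.04 at D2, 0.07 at D4 and 0.58 at D6. With alignments of all tail tags they were 0.24, 0.55 and 1.16, outside annotated exons -0.0705 at D2 and -0.0684 at D4, and at mapping quality of 10 or more -0.0195 at D4. Leaving out 1 library gave -0.0397 to 0.0946, -0.00768 to 0.127 and 0.50 to 0.64. The cause was not tested. At mapping quality of 10 or more, member tails exceeded B2 tails by 6.25 nt (p = 0.0596, exact test).

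Called families (main values 1 at D2, 0 at D4, 2 at D6) were 0 at D2 both at mapping quality of 10 or more and with library totals as scaling, and 7 at D6 with library totals. Leaving out 1 library gave 0 to 1, 0 to 1 and 1 to 3. Library totals moved the median of all features by 0.27 at D6, and gave higher calls to B1F1 (1.20), B1_Mur1 (0.75), ID_B1 (0.62), B3A (0.60) and RSINE1 (0.39). Called copies (0, 1 and 1 of 5) were 3, 8 and 8 of 44 with a minimum of 10 reads. With no minimum they were 1676, 13 and 17 of 2661 copies, of which 2045 had 1 read over all libraries. The shares of all features called under these settings are not given here. Outside exons, where fewer copies were tested, 0 were called at D4 and D6. At D6, 0 were called at mapping quality of 10 or more and with library totals. Leaving out 1 library gave 0 to 0 at D2, 0 to 2 at D4 and 0 to 1 at D6. Called families by tail at D6 (2) were 1 at mapping quality of 10 or more, 1 with 1 alignment per read, 1 with the mean of log2 tails and 0 without weights, and 1 to 3 with 1 library left out. For tails under 30 nt at D4 that range was 0 to 1.

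Families near 0 at D6 changed sign. B1_Mm was -0.0377 at mapping quality of 10 or more and -0.14 to 0.71 over libraries left out. B1_Mur3 was -0.0153 with a barcode confidence of 0.75 or more, -0.20 with 1 alignment per read, -0.0363 with the replicate block, and -0.57 to 0.34 over libraries left out. B1_Mus2 was 0.0440 outside exons, 0.0178 with median-of-ratios scaling, 0.24 with library totals, 0.0098 with the block, 0.00022 with a pseudocount of 2, and -0.25 to 0.11 over libraries left out. RSINE1 was -0.0099 at mapping quality of 10 or more, -0.0316 with 1 alignment per read and -0.0656 outside exons.

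Libraries of the same number did not deviate together (correlations of -0.08 to 0.06 over 9 pairs at each level). Because features with as few as 30 reads over the libraries entered, this cannot exclude a pairing by number. With the replicate block, called families were 1, 0 and 2 at D2, D4 and D6, called copies 0, 1 and 1, and families called by tail at D6 rose to 3. The member to B2 ratio under the pairing differed by 0.68 at D6 (p = 0.25, exact sign-flip test, the smallest it can give).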
